A study of Xenopus tropicalis with 18 samples.

Results

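The genes described here had lower RNA levels after stage 58 in both rudiments of the frog urostyle, and 91 of the 19921 genes listed in 12 count tables met the rule. Levels are in CPM, a gene's count scaled by its library's total, and 1 count was worth 0.138 to 0.521 CPM depending on the library. The genes were chosen by these levels. The rule left out the last 37 lines of the tables and the 100 most abundant genes, and asked for a mean of 8 CPM or more over the 12 libraries, which 6976 genes reached (the eligible genes). In coccyx and in hypochord, the lower of the stage 56 and stage 58 libraries then had to lie above the highest of the 4 libraries of stages 61 and 65. The late ranges of the tissues also had to overlap. The rule would have kept at most 150 genes, ranked by the smaller of the 2 tissues' early minus late differences in mean log2(CPM + 1). Since 91 passed, none was lost to that limit. The fall itself chose the genes and is given below as a description, without a test.

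The animals were wild-type Xenopus tropicalis tadpoles, whose coccyx and hypochord were cut from frozen material by laser capture, and every group had the same genotype and no treatment in the labels. Stages 56 and 58, here called early, had 1 library per tissue each in these tables (replicate 1 of stage 56 and replicate 2 of stage 58), and stages 61 and 65, called late, had 2 per tissue each. Whether libraries of a group, or of the 2 tissues, share an animal is not stated in the labels, and neither is how regions were picked within a tissue. Libraries of a group that share an animal make p-values too small. The p-values cover only the spread between the libraries at hand, part of which may be technical. The reported tests join stages 56 and 58 of a tissue as 1 group of 2 libraries. Spread within that group is the difference between 1 library of each stage, not between replicates of a stage. The series' design text speaks of 3 stages, while the labels give 4.

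The urostyle is the rod of bone behind the sacrum of frogs. During metamorphosis a dorsal coccyx, built from postsacral vertebral elements, joins a ventral hypochord, a rod of cartilage and later bone below the notochord. Metamorphosis is driven by thyroid hormone, and the notochord and tail are lost while these rudiments ossify and fuse. Bulk levels are relative: fewer cells of a type and less RNA per cell cannot be told apart.

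The files do not pair their Ensembl identifiers with gene names, and 0 of the identifiers stood in the RefSeq gene table used here. The genes are therefore described by level, rank and stage pattern, 4 of them by identifier, with no role attached. For the same reason the tissue labels could not be checked against marker genes. The 6 replicate 3 libraries list identifiers that rise by exactly 1 at each of 21457 steps. Of the 91 identifiers, 58 also stand in those tables. Over the 11315 identifiers shared with the other tables, however, mean coccyx levels were unrelated (Spearman's rho 0.0079 across genes, which are not independent replicates). Values of replicate 3 were therefore not assigned to these genes, and no library outside the rule's 12 tests the fall.

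Library totals ran from 1918822 to 7271829 counts. The early hypochord libraries stood apart, with 7376 and 7508 genes counted against 11003 to 11644 in late hypochord and 13246 to 13919 in coccyx. Of the eligible genes, 16.8% and 14.5% had 0 counts in stage 56 and stage 58 hypochord, against at most 2.19% in each of the other libraries. The 100 most abundant genes took 61.5% and 66.1% of the counts in replicate 2 of stage 61 coccyx and hypochord, and 29.0% to 52.6% elsewhere, which lowers the CPM of other genes there.

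The 91 genes together made up a larger share of the early libraries than of the late ones in both tissues. In coccyx their summed counts were 0.877% of the library at stage 56 (95% Wilson interval 0.868 to 0.886) and 0.605% at stage 58 (0.599 to 0.611). The coccyx shares were 0.353% and 0.292% in replicates 1 and 2 of stage 61, and 0.398% and 0.447% in those of stage 65. In hypochord the shares were 1.02% at stage 56 (1.02 to 1.03) and 0.942% at stage 58 (0.935 to 0.949), then 0.356% and 0.267% at stage 61 and 0.301% and 0.401% at stage 65. All early shares thus lay above all late shares. The rule fixes this within each tissue. Between the tissues it is favoured by the overlap of late ranges that the rule asks of each gene, so nothing is read from it. The late shares of the tissues overlapped, which that condition also favours. The intervals cover the counting error of reads only. The libraries carry no molecular identifiers and PCR copies count as reads, so the intervals may be too narrow for the molecules captured.

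**Figure D1:**
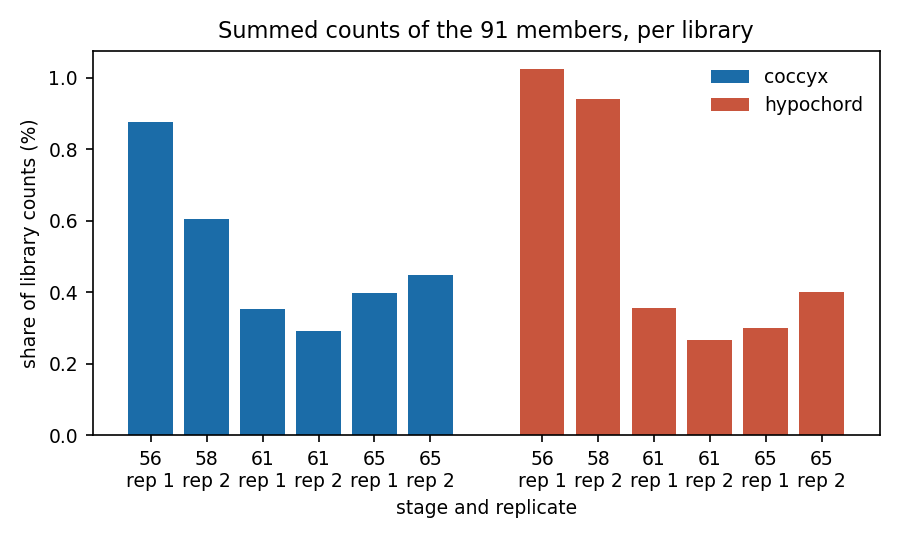
Bars give the summed counts of the 91 genes as a percentage of each library's total count (y axis, from 0), for coccyx (blue) and hypochord (red) libraries ordered by stage and replicate (x axis). Early bars reach 0.605% to 1.02%, and late bars 0.267% to 0.447%.

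For most of the 91 genes the drop was larger in hypochord than in coccyx. The ratio of early to late mean CPM had a median of 2.0 in coccyx, with a range of 1.27 to 7.32, and a median of 2.82 in hypochord, with a range of 1.32 to 17.7. In coccyx, 46 genes had a ratio under 2 and 2 had one of 4 or more. In hypochord, 16 had a ratio under 2, 18 had one from 4 to below 8, and 9 had one of 8 or more. A ratio of at least 2 in both tissues was found in 39 genes. The difference in mean log2(CPM + 1) was larger in hypochord than in coccyx for 80 of the 91 genes, against 32.0% of the eligible genes. The rule chose the 91 by both differences, so nothing is read from their distance to the eligible genes. Over the 91 genes the differences of the tissues had a Spearman's rho of 0.29 and a Pearson's r of 0.41, a description over genes that share the same 12 libraries.

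These falls stood against unlike shifts of all eligible genes in the 2 tissues. The early minus late difference in mean log2(CPM + 1) of the eligible genes had a median of 0.11 in coccyx and -0.58 in hypochord, so the 91 genes, with medians of 0.95 and 1.47, lay 0.83 and 2.05 above it. Among the 5119 eligible genes with counts in every library, a group that holds all 91, the hypochord median was -0.24. In coccyx, 473 eligible genes (6.78%) had both early libraries above the 4 late ones, and 206 (2.95%) had them below. In hypochord, 592 (8.49%) had them above and 1339 (19.2%) below. In both tissues, 93 (1.33%) had them above and 76 (1.09%) below. A further 73 (1.05%) went down in coccyx and up in hypochord, and 4 (0.0573%) did the reverse. Of the 93, the late ranges of the tissues overlapped in 91, which are 1.30% of the eligible genes, and the overlap itself was met by 94.1% of them. The rule used these contrasts, so nothing is read from the counts.

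**Figure D2:**
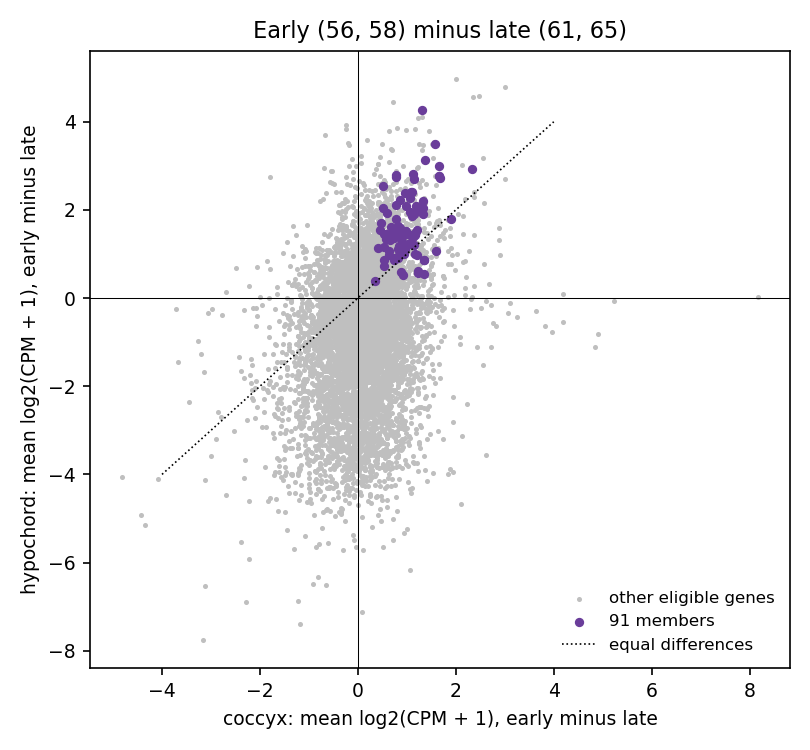
Each point is a gene, with the early minus late difference in mean log2(CPM + 1) in coccyx on the x axis and in hypochord on the y axis. The 91 members (purple) lie at 0.35 to 2.32 in coccyx and 0.40 to 4.27 in hypochord, and 80 of them above the dotted line of equal differences; other eligible genes are grey.

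The set spanned a wide range of abundance. Mean levels over the 12 libraries ran from 8.87 to 386 CPM with a median of 36.0, against 29.3 for all eligible genes. Of the 91 genes, 21 had a mean under 20 CPM, 38 had 20 to below 50, 21 had 50 to below 100, and 11 had 100 or more. Each had at least 530 counts in all, and each was counted in all 12 libraries, as were 73.4% of the eligible genes. In 80 of them every library held at least 10 counts, as in 54.4% of the eligible genes. The rule puts early libraries above late ones, so genes without counts in an early hypochord library could not be members. Nothing is therefore read from the distance of these shares to the eligible genes. The late mean was under 8 CPM in at least 1 tissue for 17 of them. Over the 8 late libraries together it was under 8 CPM for 9, which reached the minimum through their early values. A further 17 genes met the rest of the rule but had a mean under 8 CPM, the highest at 7.62.

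**Figure D3:**
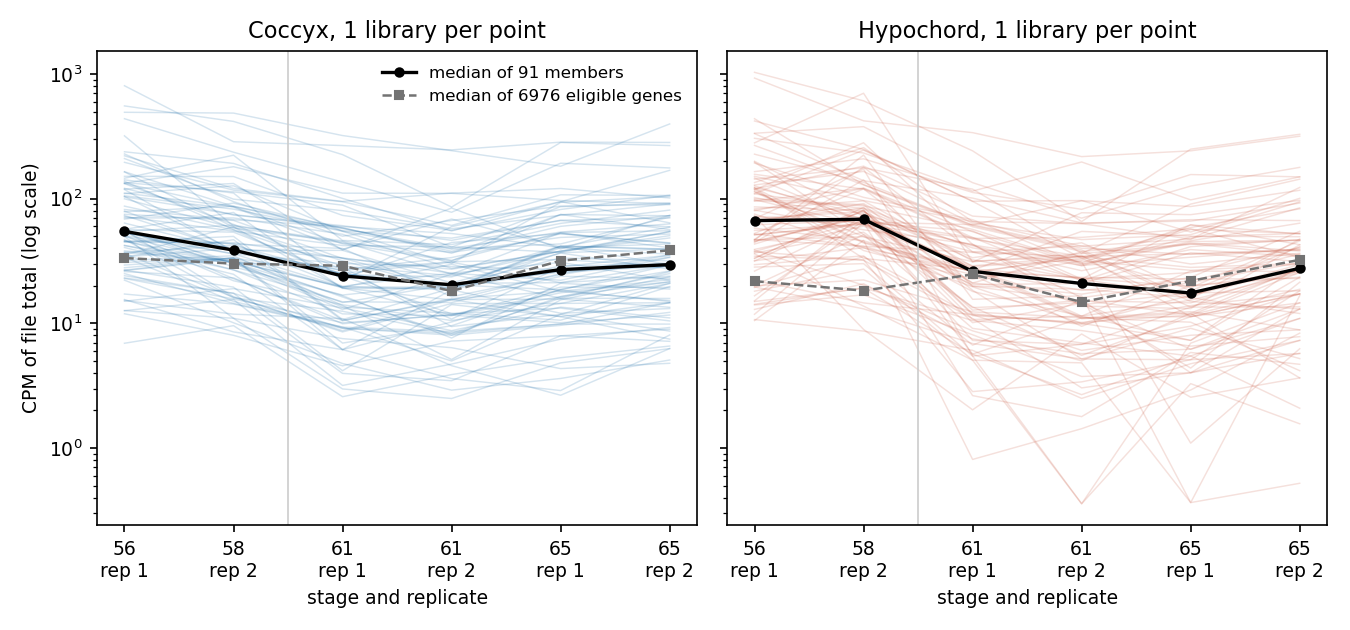
Thin lines follow each of the 91 genes over the 6 coccyx (left) and 6 hypochord (right) libraries in CPM on a log scale; replicates of a stage have no order, and lines join them only to follow a gene. The median of the 91 genes (black) was 38.7 and 54.6 CPM in early coccyx and 66.7 and 68.3 CPM in early hypochord, against 17.5 to 29.6 CPM in the late libraries, while the median of the eligible genes (grey dashed) was 14.8 to 38.5 CPM throughout.

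The highest of the 12 libraries, early by the rule, was stage 58 hypochord for 37 genes, stage 56 hypochord for 32, stage 56 coccyx for 18 and stage 58 coccyx for 4. Over the eligible genes these libraries were the highest for 13.5%, 15.3%, 15.8% and 7.65%. The lowest was replicate 2 of stage 61 hypochord for 31 genes (14.1% of the eligible genes) and replicate 1 of stage 65 hypochord for 23 (4.01%). For most of the set the highest library was thus a hypochord library, and so, counted separately, was the lowest. The rule bars an early library from being the lowest, so nothing is read from the distance to the eligible genes. In replicate 2 of stage 61 hypochord the 100 most abundant genes took 66.1% of the counts, which lowers the CPM of the others.

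Many genes met the rule narrowly. The lower early library exceeded the highest late library by a median factor of 1.16 in coccyx and 1.42 in hypochord. The smaller of the 2 factors was under 1.1 in 40 genes, at least 1.2 in 29, at least 1.5 in 6 and at least 2 in 1. The narrowest pass was 1.00012 in coccyx and 1.00006 in hypochord, and the nearest failures stood at 0.984 and 0.992. In coccyx the stage 58 library was the lower early library for 69 genes, and replicate 2 of stage 65 was the highest late library for 46. In hypochord the lower early library was that of stage 56 for 50 genes, and the highest late library was replicate 2 of stage 65 for 37. Which genes passed also rested on the scaling and on single libraries. With TMM-normalised CPM, which weigh libraries by their ordinary genes, 74 genes passed, of which 47 were among the 91. With totals that leave out the last 37 lines and the 100 most abundant genes, 85 passed, of which 53 were among the 91. The mean difference stayed above 0 for all 91 in both tissues under both scalings. The TMM medians over the 91 were 0.72 in coccyx and 1.61 in hypochord, against -0.11 and -0.46 for eligible genes. Dropping a library eases the early against late condition, but it also changes the mean CPM. Dropping a late library can also narrow the late ranges that must overlap. Without stage 58 coccyx 281 genes passed, and without stage 58 hypochord 202. The counts were 172 without stage 56 coccyx, 168 without stage 56 hypochord, and 146 without replicate 2 of stage 65 coccyx. Without replicate 2 of stage 61 coccyx 93 passed, of which 80 were among the 91.

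The gene ranked first, ENSXETG00000006333, was at least 1.75 times as high in each early coccyx library as in any late one. It had 49.6 CPM in coccyx at stage 56 (208 counts, 95% Wilson interval 43.3 to 56.8) and 10.97 CPM at stage 58 (63 counts, 8.58 to 14.04). Late coccyx had 2.98 and 2.49 CPM at stage 61, and 4.82 and 6.27 CPM at stage 65. The stage 56 library thus carried most of the early mean of 30.3 CPM, while the late libraries lay close together at 4.14 ± 1.74 CPM (SD, n = 4). In hypochord it had 36.0 CPM at stage 56 and 13.8 CPM at stage 58, then 5.06 and 0.357 CPM at stage 61 and 3.28 and 1.56 CPM at stage 65. The lowest of these rested on 2 counts (interval 0.0979 to 1.30 CPM). Both tissues were highest at stage 56 and intermediate at stage 58.

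The gene ranked second, ENSXETG00000022169, had near equal early means in the tissues in CPM of the file total. In coccyx it had 79.5 CPM at stage 56 and 38.3 CPM at stage 58, then 24.0 and 11.9 CPM at stage 61 and 13.2 and 10.5 CPM at stage 65. In hypochord it had 45.6 and 71.0 CPM at stages 56 and 58, 27.3 and 11.1 CPM at stage 61, and 11.3 and 17.2 CPM at stage 65. The early means were 58.9 CPM in coccyx and 58.3 CPM in hypochord, and the late means were 14.9 ± 6.17 and 16.7 ± 7.61 CPM (SD, n = 4). After TMM normalisation, stages 56 and 58 had 64.2 and 36.0 CPM in coccyx, and 46.9 and 92.9 CPM in hypochord. The near equality of the tissues thus depended on the scaling. In both scalings the order of stages 56 and 58 was opposite in the tissues.

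ENSXETG00000014232, ranked 12th, had the largest hypochord ratio of the set. Its hypochord levels were 69.1 CPM at stage 56 and 173 CPM at stage 58, against 5.46 and 0.357 CPM at stage 61 and 6.93 and 14.6 CPM at stage 65. In coccyx it had 32.0 and 34.8 CPM early, 13.9 and 5.13 CPM at stage 61, and 15.4 and 23.6 CPM at stage 65. ENSXETG00000032376, ranked 19th, had hypochord levels of 11.8 CPM at stage 56 and 64.1 CPM at stage 58, and late hypochord had 2.63 and 1.78 CPM at stage 61 and 5.84 and 4.69 CPM at stage 65. Its coccyx levels were 12.6 and 15.5 CPM early, 3.17 and 4.71 CPM at stage 61, and 7.46 and 9.26 CPM at stage 65. Both genes were named because their fitted change from stage 61 to 65 was above 0 in both tissues and largest on average. The late values below do not establish such a rise. The most abundant gene of the set, ranked 56th, had 805 and 286 CPM in early coccyx and 246 to 284 CPM in late coccyx, so its stage 58 library alone came close to the late level.

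**Figure D4:**
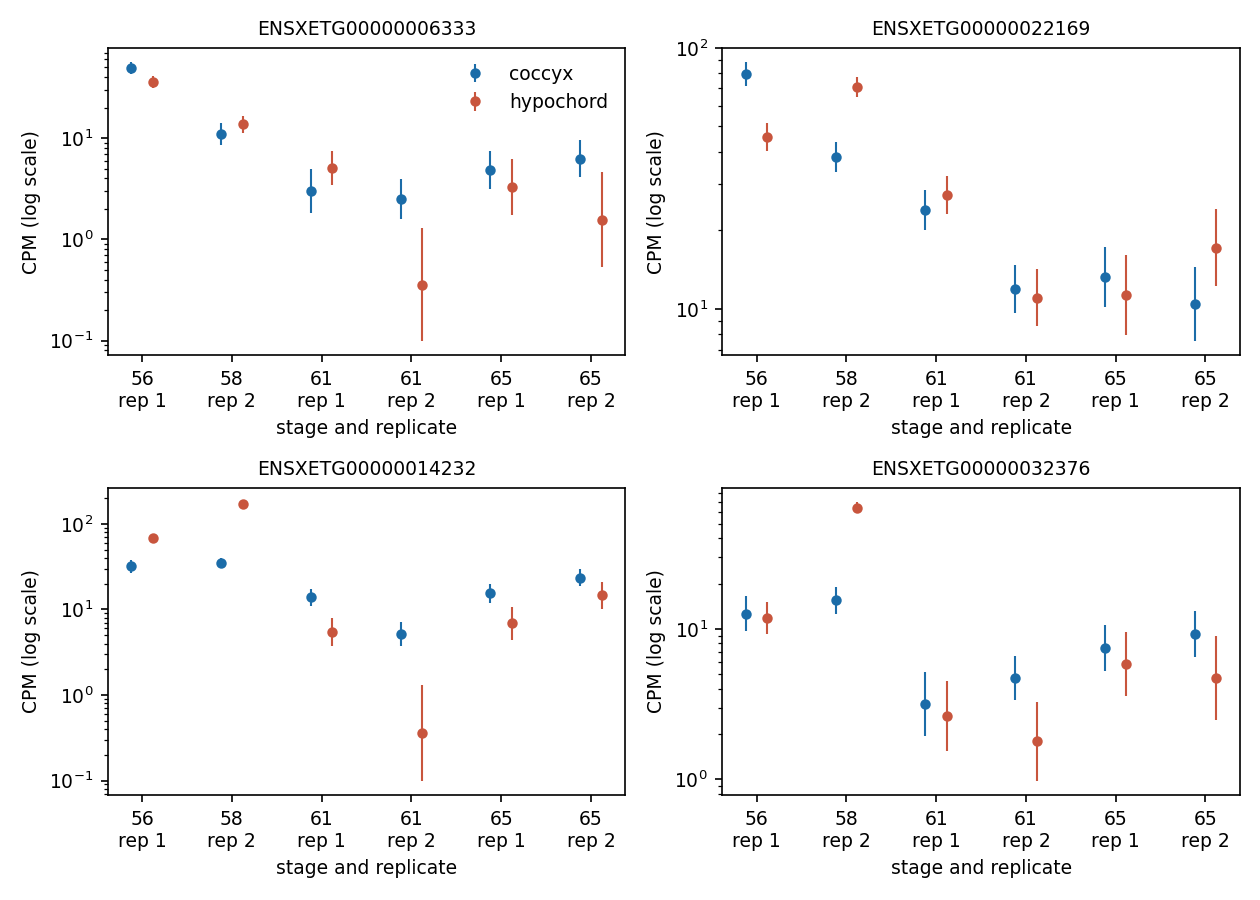
CPM on a log scale (y axes, scaled per gene) of the 4 genes given by identifier, by stage and replicate (x axes), in coccyx (blue) and hypochord (red). Bars are 95% Wilson intervals, which cover the counting error of reads only. ENSXETG00000006333 and ENSXETG00000022169 are the first in rank. ENSXETG00000014232 had 69.1 and 173 CPM in early hypochord and 0.357 to 14.6 CPM in late hypochord, the lowest from 2 counts.

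Within the early stages, in CPM of the file total, stage 56 was the higher for most of the 91 genes in coccyx but not in hypochord. The rule chose the genes by these same early values, so nothing is read from their distance to other genes. In coccyx, stage 56 was above stage 58 for 69 of them (75.8%), against 53.7% of the eligible genes and 70.4% of the 473 that fell in coccyx. In hypochord, stage 56 was above stage 58 for 41 (45.1%), against 50.7% of the eligible genes. Stage 56 was the higher in both tissues for 33 genes (36.3%, against 34.1% of the eligible genes) and the lower in both for 14 (15.4%, against 26.5%). For 36 it was the higher in coccyx and the lower in hypochord, and for 8 the reverse. Between the tissues, the log2 ratios of stage 56 to 58 had a Spearman's rho of 0.15 and a Pearson's r of 0.14 over the 91 genes. The ratio of stage 56 to stage 58 had a median of 1.35 in coccyx (range 0.595 to 5.29) and 0.889 in hypochord (range 0.184 to 8.12). In coccyx, stage 56 was at least 2 times stage 58 in 18 genes and the opposite held in 0. In hypochord, stage 56 was at least 2 times stage 58 in 14 genes, and stage 58 was at least 2 times stage 56 in 17. These orders also depend on the scaling. The TMM factors at stages 56 and 58 were 1.24 and 1.06 in coccyx, and 0.974 and 0.764 in hypochord. TMM normalisation thus lowers the ratio of stage 56 to 58 in both tissues, and the orders were not counted in that scaling. With 1 library per tissue and stage, they have no replicate check and were not tested.

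**Figure D5:**
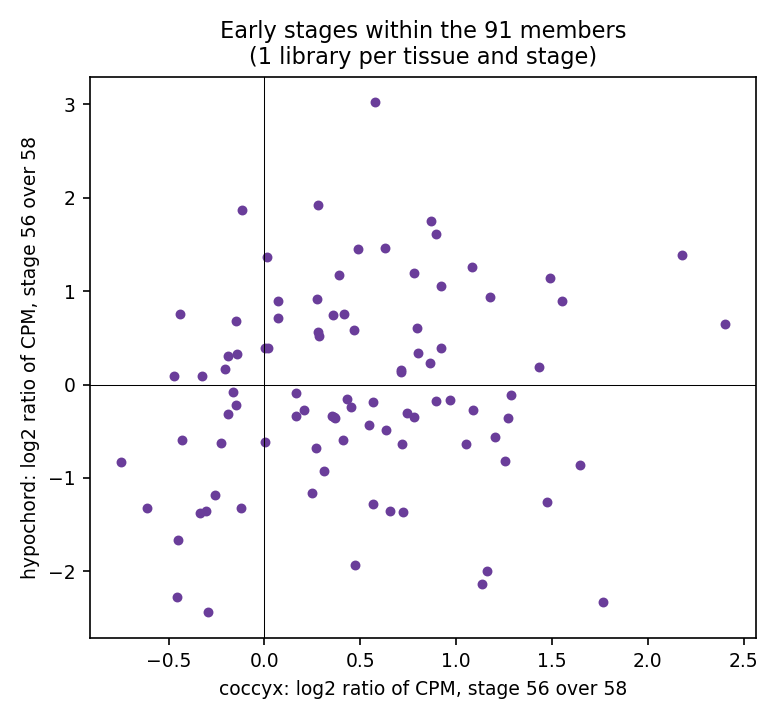
Each point is 1 of the 91 genes, with the log2 ratio of stage 56 to stage 58 CPM in coccyx on the x axis and in hypochord on the y axis, from 1 library per tissue and stage. Of the points, 69 lie right of 0, and 41 lie above 0.

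The tissues were then compared at the early stages. The rule did not set the tissues against each other there, but it chose the genes by the same early values. The counts, calls and p-values of members that follow are therefore a description and no test of the set. Nothing is read from their distance to other genes. In CPM, the early hypochord mean was above the coccyx mean for 68 of the 91 genes (74.7%), against 36.0% of the eligible genes. Both hypochord libraries were above both coccyx libraries in 25 of them (27.5%, against 7.44% of the eligible genes) and below in 7 (7.69%, against 33.4%). At the late stages, where the rule asks the tissues' ranges to overlap, the hypochord mean was above the coccyx mean for 32 (35.2%), near the 37.7% of the eligible genes. Genes scarce in the early hypochord libraries could not be members, and of the 592 eligible genes that fell in hypochord, 85.5% also had the higher early mean there. The fit over all 11729 tested genes did not pair the tissues. Its test (edgeR quasi-likelihood, Benjamini-Hochberg adjustment) gave 2707 genes with more RNA in coccyx (23.1%) and 75 with more in hypochord (0.639%). Of the 91, all of which were tested, it called 0, against 23.7% of all genes in either direction. The log2 ratio of coccyx to hypochord was below 0 in 81 of the 91 and above 0 in 10, while 64.5% of all tested genes were above 0. Its median was -0.87, against 0.92 for all tested genes. Without stage 58 hypochord the ratio was below 0 in 68 of the 91, with a median of -0.49. The median of all tested genes ran from 0.39 to 3.32 over the alternatives, the highest without stage 56 hypochord. At an unadjusted p under 0.05, 14 of the 91 were higher in hypochord (2.68% of all genes) and 0 were higher in coccyx (34.2%). The lowest adjusted p among the 91 in edgeR was 0.059. ENSXETG00000006333 had a log2 ratio of -0.13 ± 1.11 (SE, edgeR adjusted p = 0.959, range over 20 alternatives 0.573 to 0.969) and ENSXETG00000022169 had -0.48 ± 0.70 (SE, edgeR adjusted p = 0.693, range over 20 alternatives 0.174 to 0.982).

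The count of members called in this contrast depended on the model. Since the rule chose the members by these early values, no model's calls test the set. DESeq2 called 18 of the 91, limma voom called 7, and edgeR with stages 56 and 58 as separate groups of 1 library called 21, in each case all higher in hypochord. Without stage 56 hypochord edgeR called 17, and without stage 58 hypochord it called 7, again all higher in hypochord. These fits leave 1 early hypochord library, which is assumed to vary like the other groups, as are the single libraries of the separate stages. With the stage and replicate number as a block, the whole table had 182 calls, of which 165 had coccyx above hypochord and 17 had it below. Of the 91, 0 were called. The block fits more coefficients and so leaves fewer residual degrees of freedom than the unblocked fit. How much of the lower count comes from that was not tested. Over all genes the unblocked count was 1515 without stage 56 coccyx, 1363 without stage 58 coccyx, and 1676 and 1687 without replicates 1 and 2 of stage 65 coccyx.

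Between stages 61 and 65 the direction of the set depended on the scaling in both tissues. The rule held all 4 late libraries of a tissue below its early ones and asked the tissues' late ranges to overlap. The late counts, calls and p-values of members, here and below, are therefore a description, and nothing is read from their distance to other genes. Shares of all tested genes refer to 11729 genes, not only to the eligible genes from which the members came. In CPM of the file total, the stage 65 mean was above the stage 61 mean in coccyx for 78 of the 91 genes (85.7%), close to the 84.7% of all eligible genes. After TMM normalisation 37 of them had a coccyx log2 change of stage 65 over 61 above 0, against 54.4% of all tested genes. The median was -0.07, against 0.06 for all tested genes. In hypochord the CPM mean was above that of stage 61 for 52 (57.1%, against 71.1% of the eligible genes). After TMM normalisation 23 of 91 were above 0 there, against 46.6% of all tested genes. The median was -0.34, against -0.01 for all tested genes. Without replicate 2 of stage 61 hypochord, 36 were above 0 and the median was -0.14. In coccyx, both stage 65 libraries were above both stage 61 libraries in CPM for 48 genes (52.7%, against 44.4% of the eligible genes) and below for 3 (3.30%, against 3.81%). In hypochord they were above for 16 (17.6%, against 28.1%) and below for 13 (14.3%, against 7.34%). The libraries of the late hypochord stages thus overlapped for most of the set. After TMM normalisation 42 of the genes lay below 0 in both tissues (against 28.0% of all tested genes) and 11 above 0 in both (against 29.7%). Another 26 lay above 0 in coccyx only (against 22.3%) and 12 above 0 in hypochord only (against 16.9%).

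No change between the late stages passed edgeR's test, for the 91 or for any tested gene (0.00% in both tissues). At an unadjusted p under 0.05 the test found 0 of the 91 in coccyx, where 0.324% of all genes were higher and 1.19% lower at stage 65. In hypochord it found 3, all 3 lower at stage 65, where 1.76% of all genes were higher and 2.45% lower. ENSXETG00000014232 had a log2 change of 0.60 ± 0.92 in coccyx and 1.62 ± 0.97 in hypochord (SE, edgeR adjusted p = 1 for each). With 1 library left out its coccyx change ran from 0.16, without replicate 2 of stage 61 coccyx, to 1.09, without replicate 1. Its hypochord change ran from 0.83, without replicate 2 of stage 61 hypochord, to 3.91, without replicate 1, where stage 61 rests on 2 counts. ENSXETG00000032376 had 0.47 ± 1.03 and 0.82 ± 1.06 (SE, edgeR adjusted p = 1 for each). DESeq2 called 32 genes in coccyx, of which 0 were members, and 61 in hypochord, of which 1 was a member, while limma voom called 0 in both.

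The member that DESeq2 called in hypochord, ranked 23rd and singled out after its values were seen, was not called by edgeR. Its hypochord levels were 102 and 69.0 CPM early, 42.5 and 31.1 CPM at stage 61, and 1.09 and 6.25 CPM at stage 65, the last 2 from 3 and 12 counts. In coccyx it had 37.2 and 30.7 CPM early, 16.7 and 7.62 CPM at stage 61, and 20.9 and 18.8 CPM at stage 65. In CPM of the file total, its stage 65 hypochord libraries thus lay below every other library. Its stage 65 coccyx libraries lay above those of stage 61 in that scaling, but the fitted coccyx log2 change was 0.28 ± 0.73 (SE, edgeR). Its hypochord log2 change of stage 65 over 61 was -3.94 ± 0.84 (SE, edgeR adjusted p = 0.721, which ran from 1.04e-05 to 1 over 20 alternatives). The difference of the change between the tissues, coccyx minus hypochord, was 4.22 ± 1.09 (SE, edgeR adjusted p = 0.9999, range over 20 alternatives 0.0209 to 1). DESeq2 gave -3.91 (adjusted p = 1.04e-05) and 4.16 (adjusted p = 0.0209), the lowest of these ranges.

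The gene ranked 4th had a like late split at lower counts. Its hypochord levels were 18.1 and 27.2 CPM early, 5.06 and 4.82 CPM at stage 61, and 0.365 and 0.521 CPM at stage 65, each of the last from 1 count. In coccyx it had 23.1 and 17.4 CPM early, 3.97 and 3.47 CPM at stage 61, and 7.95 and 8.96 CPM at stage 65. Its difference of the late change, coccyx minus hypochord, was 4.59 ± 1.38 (SE, edgeR adjusted p = 0.9999, range over 20 alternatives 0.9998 to 1). Over all genes the test of this difference called 0 by edgeR (0.00%), with 96 positive and 67 negative at an unadjusted p under 0.05 (0.818% and 0.571%). These 2 genes were the members among the positive ones, and 0 members were among the negative ones. Over the 91 the difference was above 0 in 64, against 53.3% of all tested genes. Its median was 0.25, against 0.08 for all tested genes. Without replicate 2 of stage 61 hypochord that median was -0.047.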

How the data were processed

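Each deposited file holds the count of reads per gene of 1 library, not normalized, per the file headers and, for replicate 3, from the values. Per the submitters' processing notes, HTSeq 0.13.5 was used along with cutadapt 1.8.1 and FastQC; for the aligner, genome build and annotation, nothing is given in the sources used here. Per the labels' protocols, RNA came from laser capture of frozen tissue and was amplified as full-length complementary DNA. Near-identical or overlapping genes may share reads.

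The members and lists were chosen with earlier results of these data known. The 12 libraries of replicates 1 and 2 were used. Tests on the counts used R 4.3.3 and edgeR 4.0.16 (TMM, filterByExpr, robust quasi-likelihood fits, Benjamini-Hochberg adjustment over 11729 genes, threshold 0.05). The fit had 6 groups of 2 libraries, with stages 56 and 58 of a tissue as 1 group, and 6 residual degrees of freedom. SE is approximate, from the log2 change and its test statistic. On simulated counts, the early tissue contrast and coccyx stage 65 against 61 were tried with 200 genes changed in each. Each recovered 0% of genes changed 4-fold. At 16-fold they recovered 18.5% and 16%, and at 64-fold 81.5% each. In the data the early tissue contrast called 2782 genes, and more calls ease the adjusted threshold. The simulated shares therefore do not give the power of that contrast. The log2 ratios of the 91 in the early tissue contrast ran from -2.41 to 1.30. A gene without a call is not shown to be unchanged. Alternatives were DESeq2 1.42.0, limma voom 3.58.1, RLE normalization, other filters and groups, a replicate block, and leaving out each library. Planned gene lists and marker lists were not used, since no identifier had a name.

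Named genes were to be those ranked first, listed or called; without symbols the rule gave the 2 ranked first and the 2 with the largest mean late change above 0 in both tissues. Genes ranked 4th, 23rd and 56th were singled out after their values were seen.

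Deviations of replicates 1 and 2 from group means correlated between the tissues with r = 0.35 at stage 61 and 0.19 at stage 65. At stages 56 and 58 r was 0.30, but there replicate 1 is the stage 56 library and replicate 2 the stage 58 library. That r includes any stage difference common to the tissues and cannot show pairing. The replicate block matched coccyx and hypochord libraries of equal stage and replicate number, a choice that rests on the late values alone. From stage 61 to 65 the correlation was -0.12 in coccyx and 0.02 in hypochord, and stages were left unpaired.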

Additional observations from a re-analysis of the deposited data

How the results depend on the processing

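Most counts of calls were 0 both as reported and under the alternatives, which says nothing about stability. Where counts moved, the cause was not tested. Leaving out a library or a stage eases the early against late condition of the rule but also changes the mean CPM. Leaving out a late library can also narrow the late ranges that must overlap. The rule gave 1035 genes with stage 56 alone as the early stage and 512 with stage 58 alone, of which 85 and 86 were among the 91, and 93 to 281 when 1 library was left out, among them 80 to 91 of the 91. For the early tissue contrast, stages 56 and 58 as separate groups called 5535 genes, 21 of them members, and the replicate block called 182. DESeq2 and limma voom called 18 and 7 members there, genes that the rule chose by the same early values. Leaving out 1 library gave 1363 to 4145 genes and 0 to 17 members. For stage 65 against 61, DESeq2 called 32 genes in coccyx and 61 in hypochord (1 member), no filter on low counts called 7 and 9, and the replicate block, where the numbers do not pair the stages, called 0 and 1. Leaving out 1 library gave 0 to 1 in coccyx, the 1 without replicate 2 of stage 61 hypochord. DESeq2 called 2 genes for the difference of the late changes (1 member). Leaving out 1 library turned some directions. In the early tissue contrast ENSXETG00000006333 ran from -1.40 to 0.55, above 0 without stage 58 coccyx (0.55) and without stage 56 hypochord (0.29), and ENSXETG00000022169 from -1.07 to 0.029, above 0 without stage 58 hypochord. For stage 65 against 61 in coccyx, ENSXETG00000032376 ran from -0.0013, without replicate 1 of stage 61, to 1.07. The median difference of the late changes over the 91 ran from -0.047, without replicate 2 of stage 61 hypochord, to 0.35. The block changed no call of a member. A level resting on 3 counts is 0.413 to 1.56 CPM, depending on the library, so late values near it are imprecise.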
